A study of Mus musculus with 2 samples.

Results

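The 9 CC chemokine genes Ccl2, Ccl3, Ccl4, Ccl6, Ccl7, Ccl8, Ccl9, Ccl12 and Ccl24 were followed in cells sorted as neutrophils from mouse lung tumors. They were chosen by gene symbol, and all 9 were found among the 31053 genes of the matrix. The cells came from subcutaneous tumors of LLC, a mouse lung carcinoma line, grown in mice of C57BL/6 J background at an age of 8 to 12 weeks. Smad3-WT mice carried both normal copies of Smad3, a transcription factor of the TGF-β pathway, and Smad3-KO mice were Smad3-/-, with an allele that lacks part of the gene. The deletion is one of the host mice, and the implanted carcinoma line was the same in both groups. CD11b+Ly6G+ cells, termed tumor-associated neutrophils (TANs), were sorted from 8 pooled tumors per genotype and gave 1 library per genotype with a 5′ single-cell kit. No replicate of either genotype was analysed here, so genotypes were compared without a test, and each interval below covers counting error only, at the 95% level.

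CC chemokines are small secreted proteins with a pair of adjacent cysteines that draw leukocytes along gradients by binding G protein-coupled receptors. CCL2, CCL7 and CCL12 act mainly on CCR2 and recruit inflammatory monocytes, mouse CCL8 acts on CCR8, and CCL24 acts on the eosinophil receptor CCR3. CCL6 and CCL9 are rodent chemokines that bind CCR1, CCL3 also binds CCR1, and CCL4 is a close relative of CCL3 that attracts monocytes and T cells. In tumors these ligands are known products of macrophages, neutrophils, fibroblasts and carcinoma cells.

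On the mouse genome (GRCm38, the build of the matrix) 8 of the 9 genes lie in 2 blocks of chromosome 11, and all are annotated as protein coding. On the forward strand Ccl2 spans 82035571 to 82037453, Ccl7 82045712 to 82047525, Ccl12 82101845 to 82103400 and Ccl8 82115185 to 82116799. A gap of 1456.119 kb separates them from Ccl9 (83572919 to 83578636), Ccl6 (83587882 to 83593087) and Ccl3 (83647844 to 83649355), all on the reverse strand, and from Ccl4 on the forward strand (83662584 to 83664683). Ccl24 lies alone on the reverse strand of chromosome 5, from 135569937 to 135573049. As described below, the members of the first block were near background in neutrophil-like cells and those of the second block were above it. Among the latter, Ccl9 did not exceed every macrophage gene used as background.

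Promoter sequences of the second block are shown because its members were all present in neutrophil-like cells but differed in direction between the libraries. RefSeq promoter sequences (GRCm38.p6) matched 5 of the 9 members, and the 250 bases before the RefSeq start are given for Ccl9 (chr11:83578637-83578886), Ccl6 (chr11:83593088-83593337) and Ccl3 (chr11:83649379-83649628), each from 5′ to 3′ on the reverse strand, which is the strand of the gene. Capitals mark matches, on either strand, to AP-1 (TGANTCA), NF-kB (GGG, 2 bases of any kind, then TTTCC), an interferon element (ISRE, GAAA, 2 bases of any kind, then GAAA), a SMAD-binding palindrome (SBE, GTCTAGAC) or C/EBP (TTNNGNAAT).
Ccl9: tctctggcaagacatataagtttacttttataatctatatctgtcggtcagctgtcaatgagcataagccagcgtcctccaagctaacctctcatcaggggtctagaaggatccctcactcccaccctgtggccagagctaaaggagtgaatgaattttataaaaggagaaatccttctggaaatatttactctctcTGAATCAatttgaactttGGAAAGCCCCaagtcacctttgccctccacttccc
Ccl6: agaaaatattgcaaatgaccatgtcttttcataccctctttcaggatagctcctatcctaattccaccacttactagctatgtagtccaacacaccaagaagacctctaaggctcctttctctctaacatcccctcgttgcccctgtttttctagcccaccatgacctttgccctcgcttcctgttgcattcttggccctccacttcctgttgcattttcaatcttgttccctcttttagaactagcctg
Ccl3: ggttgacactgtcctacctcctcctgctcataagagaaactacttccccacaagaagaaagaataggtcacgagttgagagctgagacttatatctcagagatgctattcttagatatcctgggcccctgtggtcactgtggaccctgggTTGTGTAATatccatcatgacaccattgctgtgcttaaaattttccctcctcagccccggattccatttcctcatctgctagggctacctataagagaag

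The Ccl9 window held an AP-1 match 53 bases and an NF-kB match 35 bases before the start, and the Ccl3 window a C/EBP match 100 bases before it. These letters occurred in 6.75% (AP-1), 1.41% (NF-kB) and 10.2% (C/EBP) of 32851 promoter windows of the same length, so a match is a description and not a site. No match overlapped another. The Ccl6, Ccl8 and Ccl12 windows matched none of the 5 motifs, and no member's window held the SBE letters, which were in 0.167% of all windows.

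The Smad3-WT library held 23951400 UMIs (unique molecular identifiers, counted once per captured RNA molecule) in 4116 barcodes, and the Smad3-KO library 4214290 UMIs in 2514 barcodes. After the study's filter on cells 3520 and 2433 cells remained. The upper limit of 20000 UMIs removed 382 Smad3-WT and 0 Smad3-KO barcodes. Over all kept cells, Smad3 itself was listed at 14.6 UMIs per 1000000 UMIs (CPM) in Smad3-WT and 77.4 CPM in Smad3-KO. It was thus higher, not lower, in the library labelled as the knockout. These levels pool cell classes, defined below, whose shares differ. Carcinoma-like cells gave 40.8% of the Smad3-WT and 1.42% of the Smad3-KO UMIs, and B-like cells 0.0393% and 23.0%. Smad3 was not compared within a class. A 5′ kit reads the start of a transcript and the allele is disrupted in later exons, but reads were not placed within the gene here. The Smad3 level was therefore not used to check the genotype. The libraries also differed in sex-linked RNA, with Xist at 0.657 CPM in Smad3-WT and 471 CPM in Smad3-KO and the Y-linked Ddx3y at 53.9 and 7.96 CPM. Genotype, sex of the mice, depth and library cannot be told apart in any comparison below. In addition, 73 barcodes occurred in both libraries. They made up 19 of the 36 Smad3-KO cells of the carcinoma class defined below (median of 607 UMIs against 1730.0 in the others) and 7 of the 45 Smad3-WT fibroblast-like cells (median of 626 UMIs against 8299), but, among macrophage or monocyte-like cells, 0 of 120 in Smad3-KO and 4 of 1092 in Smad3-WT. The main values of the fibroblast-like and carcinoma-like cells are therefore given with and without them.

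Cells were grouped by expression with all Ccl genes left out, and groups were named from lists of marker genes. Of the cells sorted as neutrophils, 51.6% in Smad3-WT (1817 cells, median of 740 UMIs) and 44.0% in Smad3-KO (1071 cells, median of 1016 UMIs) were neutrophil-like, with S100a8 and S100a9. Macrophage or monocyte-like cells made up 31.0% in Smad3-WT (1092 cells, median of 3366 UMIs) and 4.93% in Smad3-KO (120 cells, median of 2165 UMIs). The remaining classes were B-like (3 and 572 cells), T or NK-like (62 and 462), LLC carcinoma-like (403 and 36), dendritic-like (98 and 112) and fibroblast-like (45 and 60). A sorted share is set by the gate as well as by the tumor, so the shares are not compared further. Each level below is the sum of a gene's UMIs over a class divided by all UMIs of that class, so it does not depend on the number of cells.

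**Figure D1:**
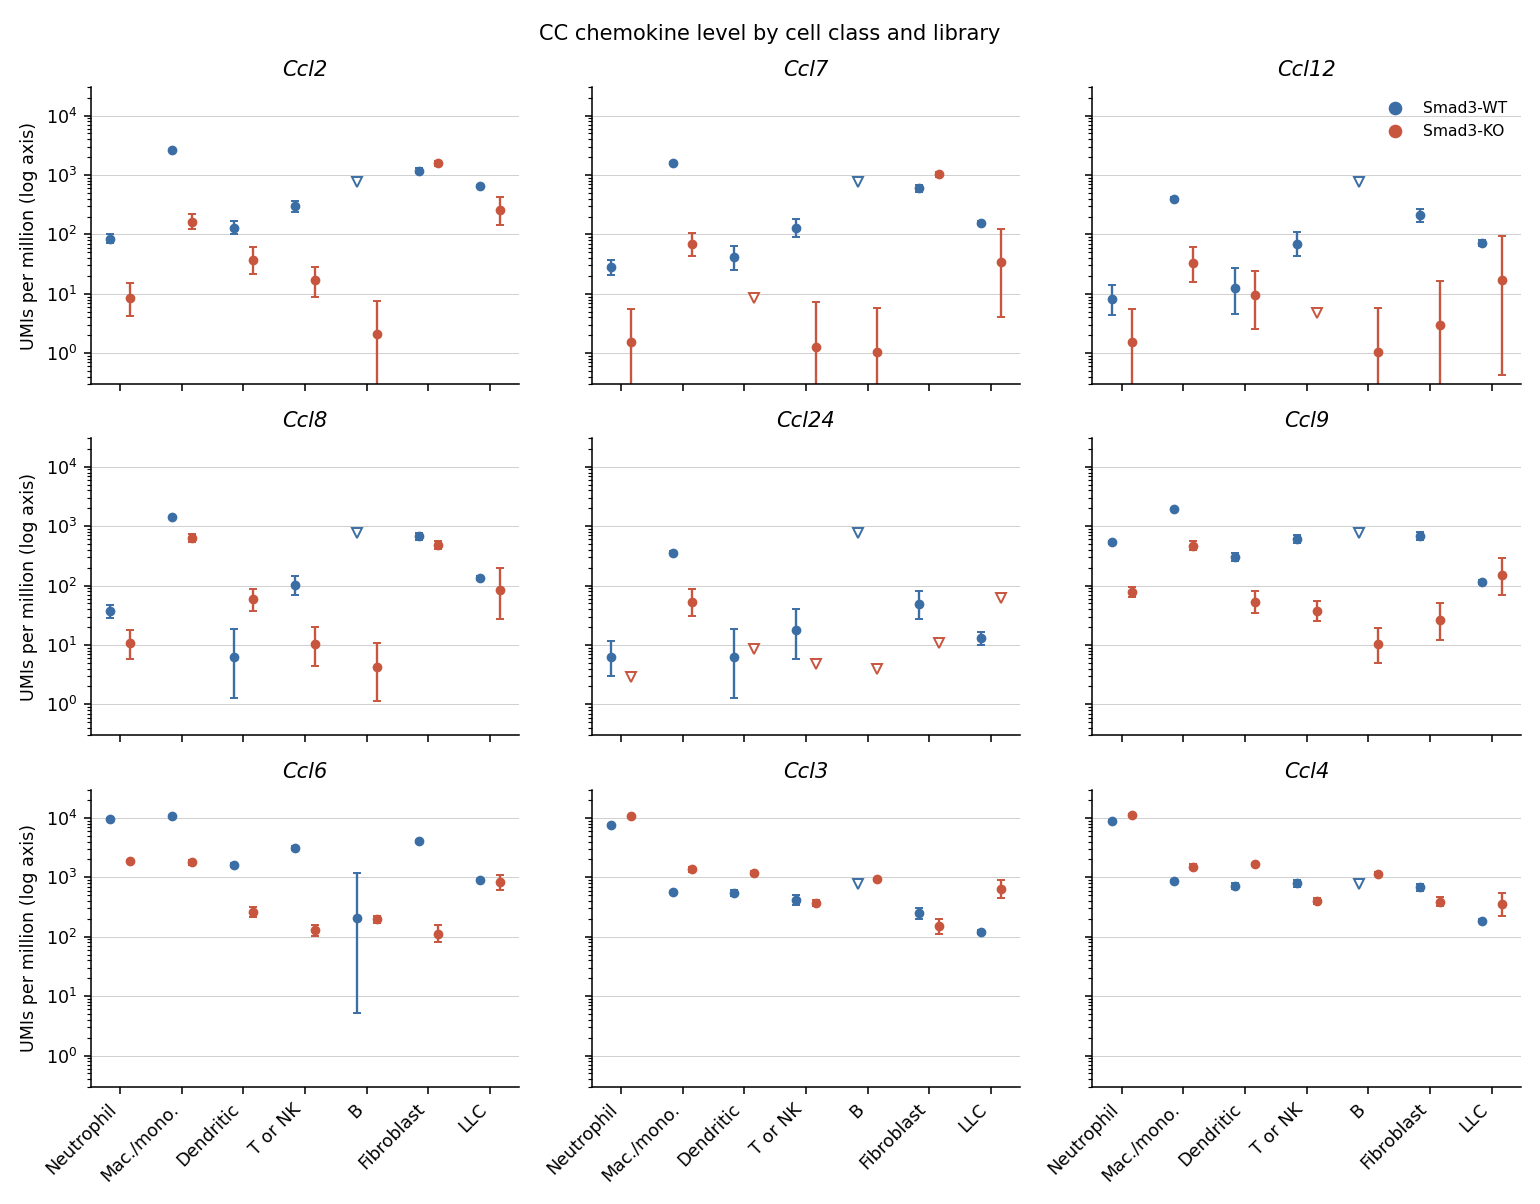
Level of each CC chemokine (CPM, log axis) in 7 cell classes of the Smad3-WT (blue) and Smad3-KO (red) library; bars are exact 95% Poisson intervals, and open triangles give the upper limit where no UMI was seen. Ccl3 and Ccl4 stand highest in neutrophil-like cells of both libraries (7677 to 11376 CPM), while Ccl2 and Ccl7 are highest in macrophage or monocyte-like cells of Smad3-WT and in fibroblast-like cells of Smad3-KO.

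Among kept cells, the label of myeloid chemokines held for the Smad3-WT library and not for all members in Smad3-KO. The filter kept 12176201 of the 23951400 Smad3-WT UMIs and 4146792 of the 4214290 Smad3-KO UMIs, and the shares below do not cover the rest. In Smad3-WT, macrophage or monocyte-like cells held 75.2% of the kept Ccl2 UMIs, 87.2% of Ccl7, 79.8% of Ccl12 and 86.8% of Ccl8. They also held 94.4% of Ccl24, 82.1% of Ccl9 and 68.4% of Ccl6. Neutrophil-like cells held 77.0% of the Ccl3 and 71.5% of the Ccl4 UMIs there. In Smad3-KO, fibroblast-like cells held 83.3% of the Ccl2 and 92.7% of the Ccl7 UMIs, although they were 60 of 2433 cells. Of the 528 Ccl2 UMIs of these cells 293 remained without the 7 shared barcodes, and of the 343 Ccl7 UMIs 239. The UMIs were also bunched, as the 10% of these 60 cells with the most Ccl2 held 82.8% of their Ccl2 UMIs. For Ccl7 this was 61.5%. The share of a class in a library also follows its number of cells, which the levels below do not.

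Ccl2, the main ligand of CCR2 on inflammatory monocytes, was at 2607 CPM (2561 to 2655, 11831 UMIs) in Smad3-WT and 164 CPM (121 to 217, 49 UMIs) in Smad3-KO macrophage or monocyte-like cells. The level was thus 15.9-fold lower in Smad3-KO, with a ratio of 0.0629 (0.0465 to 0.0832). Ccl7, its neighbour on the chromosome, was at 1608 CPM (7298 UMIs) in Smad3-WT and 70.3 CPM (21 UMIs) in Smad3-KO, a ratio of 0.0437 (0.0270 to 0.0668). Ccl12 was at 402 CPM in Smad3-WT and 33.5 CPM in Smad3-KO, where only 10 UMIs were counted, and a ratio of 0.0832 (0.0398 to 0.153). When the cells of this class with a UMI of the neutrophil genes S100a8, S100a9 or Csf3r were left out, the ratios were 0.123 (0.0849 to 0.172) for Ccl2, 0.0736 (0.0402 to 0.124) for Ccl7 and 0.132 (0.0531 to 0.274) for Ccl12. For these 3 ligands the intervals of the libraries were apart with and without these cells. The intervals do not cover bunching of UMIs in few cells. In Smad3-KO 1 cell held 23 of the 49 Ccl2 UMIs, and 7 cells held the 21 Ccl7 UMIs. In Smad3-WT the 10% of cells with the most of a gene held 59.8% of its UMIs for Ccl2, 69.3% for Ccl7 and 87.0% for Ccl12. In cells thinned to 500 UMIs each, a Ccl2 UMI was found in 38.5% of the Smad3-WT and 5.0% of the Smad3-KO cells of this class (65.4% and 14.2% without thinning), against 2.59% and 0.373% of neutrophil-like cells (3.80% and 0.560% without thinning).

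In both macrophage or monocyte-like clusters Ccl2 and Ccl7 were lower in Smad3-KO. Cluster 2 was led by Ppbp, Vcan and Ccr2 and held most cells of the class in each library (743 and 74), and cluster 8 was led by the complement genes C1qa, C1qb and C1qc and by Folr2 (349 and 46 cells). In cluster 2 Ccl2 was at 3014 CPM in Smad3-WT and 249.8 CPM in Smad3-KO, and in cluster 8 at 2115 and 33.7 CPM. The Smad3-KO value of Ccl2 in cluster 8 came from 4 UMIs. Ccl7 was at 1366 and 94.4 CPM in cluster 2 and at 1902 and 33.7 CPM in cluster 8, the Smad3-KO value of the latter from 4 UMIs. Ccl12 leaned to the complement-rich cluster, with 661 CPM against 189 CPM in the Smad3-WT library.

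Ccl24, a ligand of the eosinophil receptor, was found in few cells. Its level was 359 CPM (1629 UMIs) in Smad3-WT and 53.5 CPM (16 UMIs) in Smad3-KO macrophage or monocyte-like cells, with a ratio of 0.149 (0.0850 to 0.243), which was 0.0484 (0.00585 to 0.176) without the cells that held neutrophil genes. In Smad3-WT the 10% of cells with the most Ccl24 held 91.4% of its UMIs. In that library the gene was higher in the Ppbp and Vcan cluster (484 CPM) than in the complement-rich one (207 CPM), the reverse of Ccl12. In Smad3-KO these clusters gave 33.3 CPM (6 UMIs) and 84.2 CPM (10 UMIs).

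Ccl8 was the least even member in Smad3-WT, and its difference between the libraries depended on how cells were weighted. Pooled over macrophage or monocyte-like cells it was at 1407 CPM (6386 UMIs) in Smad3-WT and 629 CPM (188 UMIs) in Smad3-KO, a ratio of 0.447 (0.384 to 0.517). However, 10% of the Smad3-WT cells held 96.6% of these UMIs, and the share of thinned cells with a Ccl8 UMI was 11.5% in Smad3-WT and 16.7% in Smad3-KO (19.8% and 22.5% without thinning). With every cell thinned to 500 UMIs the ratio was 1.21 (0.910 to 1.57), and as a mean over cells 1.08. Nearly all Ccl8 was in cluster 8, at 3011 CPM in Smad3-WT and 1397 CPM in Smad3-KO, while cluster 2 had 83.3 and 122 CPM. C1qa, which also leads cluster 8, was at 1116 and 555 CPM over the class. A lower level of Ccl8 in Smad3-KO was therefore not shown.

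Ccl6 and Ccl9, the rodent CCR1 ligands, were counted in macrophage or monocyte-like and neutrophil-like cells and were lower in Smad3-KO in both. Ccl6 was at 10859 CPM (49271 UMIs) in Smad3-WT and 1779.8 CPM (532 UMIs) in Smad3-KO macrophage or monocyte-like cells, a ratio of 0.164 (0.150 to 0.179). In neutrophil-like cells it was at 9692 CPM (15442 UMIs) and 1893 CPM (2463 UMIs), a ratio of 0.195 (0.187 to 0.204). Within a library, the Ccl6 levels of both myeloid classes thus differed far less than they did between libraries.

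The lower Ccl6 level was present in each myeloid cluster that both libraries shared. Among neutrophil-like cells Smad3-WT cells lay mainly in cluster 1 (1315 of 1817, led by Mmp9, Il1r2 and Cxcr2) and cluster 4 (482, led by Ifit3b, Ifit3 and Ddit3), whereas Smad3-KO cells lay mainly in cluster 3 (794 of 1071, led by Il1a, Csf3 and Lcn2). Ccl6 was at 9297 and 2802 CPM in cluster 1, at 10907 and 2229.8 CPM in cluster 4 and at 6348 and 1939 CPM in cluster 3, which held 20 Smad3-WT cells. Cluster 12, with the granule genes Ngp, Camp and Ltf, contained 66 Smad3-KO cells and no Smad3-WT cell, and had 932 CPM. The ratios were 0.301 in cluster 1, 0.204 in cluster 4, 0.305 in cluster 3, 0.0676 in cluster 2 and 0.320 in cluster 8.

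Ccl9 was also lower in Smad3-KO in both classes, at lower levels than Ccl6 and in fewer neutrophil-like cells. It was at 1974 CPM (8957 UMIs) in Smad3-WT and 468 CPM (140 UMIs) in Smad3-KO macrophage or monocyte-like cells, a ratio of 0.237 (0.199 to 0.280). In neutrophil-like cells it was at 534 CPM (851 UMIs) and 79.2 CPM (103 UMIs), a ratio of 0.148 (0.120 to 0.182). Of the thinned macrophage or monocyte-like cells, 53.8% held a Ccl9 UMI in Smad3-WT and 24.2% in Smad3-KO (without thinning 91.7%, and 60 of 120 cells), against 0.350% of Smad3-KO B-like cells (1.22% without thinning, median of 1245 UMIs per cell).

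**Figure D2:**
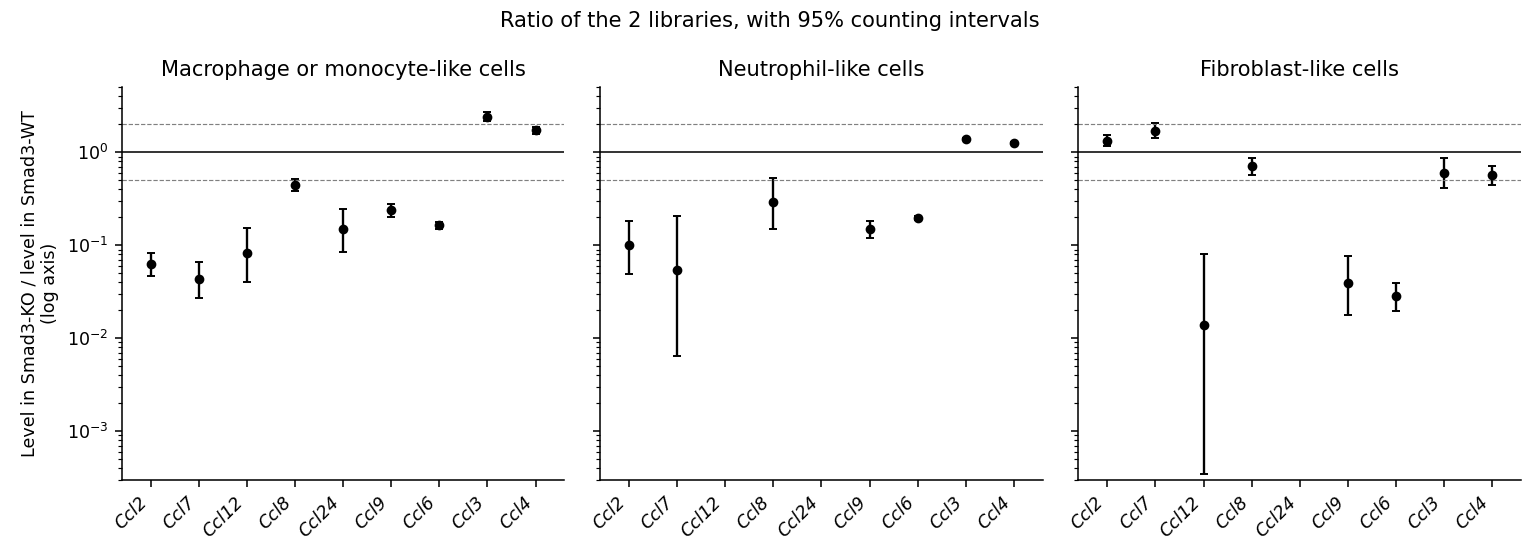
Ratio of the Smad3-KO to the Smad3-WT level (log axis) of each CC chemokine in 3 cell classes, with 95% intervals from the exact split of UMIs; dashed lines mark 2-fold differences, and members with under 20 UMIs over both libraries are not drawn. In macrophage or monocyte-like cells 7 members lie at or under the lower dashed line and Ccl3 above the upper one, while Ccl2 and Ccl7 in fibroblast-like cells lie above 1.

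Counted over the family, 7 of the 9 members were at least 2-fold lower in Smad3-KO macrophage or monocyte-like cells and 1 (Ccl3) was at least 2-fold higher. The 7 include Ccl8, whose ratio was 1.21 in thinned cells, and the Ccl3 ratio fell to 0.829 (0.392 to 1.55) without the cells that held neutrophil genes. They also include Ccl12 and Ccl24, which reached 20 UMIs through the Smad3-WT library and had 10 and 16 UMIs in Smad3-KO. The median ratio of the members was 0.164. Of all 9197 genes with at least 20 UMIs in this class, 12.9% were at least 2-fold lower and 11.4% at least 2-fold higher, and the median ratio was 1.01. In neutrophil-like cells 7 members had at least 20 UMIs, of which 5 were at least 2-fold lower and 0 higher, against 19.1% lower and 7.60% higher of all 5987 genes. The median ratio of all genes was 0.779 here. Of the 5 lower members, Ccl2, Ccl7 and Ccl8 reached 20 UMIs through the Smad3-WT library and had at most 14 UMIs in Smad3-KO. As described below, these members were not told apart from macrophage RNA. Of the 5, only Ccl6 exceeded all macrophage genes used as background, and Ccl9 exceeded C1qa but not all of them. When the neutrophil-like libraries were scaled so that the typical gene did not differ, the ratio of Ccl6 was 0.251 and those of Ccl3 and Ccl4 were 1.77 and 1.62.

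Ccl3 and Ccl4, inflammatory chemokines that neutrophils release on activation, went the other way when neutrophil-like cells were pooled. Ccl3 was at 7677 CPM (7542 to 7815) in Smad3-WT and 10585 CPM (10409 to 10763) in Smad3-KO, a ratio of 1.38 (1.35 to 1.41). Ccl4 was at 8989 and 11376 CPM, a ratio of 1.27 (1.24 to 1.29). Of the thinned cells 67.4% held a Ccl3 UMI in Smad3-WT and 81.4% in Smad3-KO (72.4% and 85.1% without thinning), against 14.2% of Smad3-KO B-like cells (19.6% without thinning), a type that can itself make CCL3 and CCL4 when activated. Neither gene passed a 2-fold difference.

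Within clusters the order of the libraries for Ccl3 and Ccl4 was not uniform. In cluster 1 Ccl3 was at 6323 CPM in Smad3-WT and 2613 CPM in Smad3-KO, a ratio of 0.413 (0.365 to 0.466), and Ccl4 at 7463 and 3057 CPM, a ratio of 0.410 (0.365 to 0.458). In cluster 4 the ratios were 0.846 (0.766 to 0.932) for Ccl3 and 0.553 (0.494 to 0.617) for Ccl4. In cluster 3 they were 1.51 (1.28 to 1.80) and 1.48 (1.26 to 1.75), with 20 Smad3-WT cells behind them. Cluster 3, where Ccl3 was at 12925 CPM and Ccl4 at 14030.4 CPM in Smad3-KO, held 794 of the 1071 Smad3-KO and 20 of the 1817 Smad3-WT cells, and the difference between clusters was not tested.

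**Figure D3:**
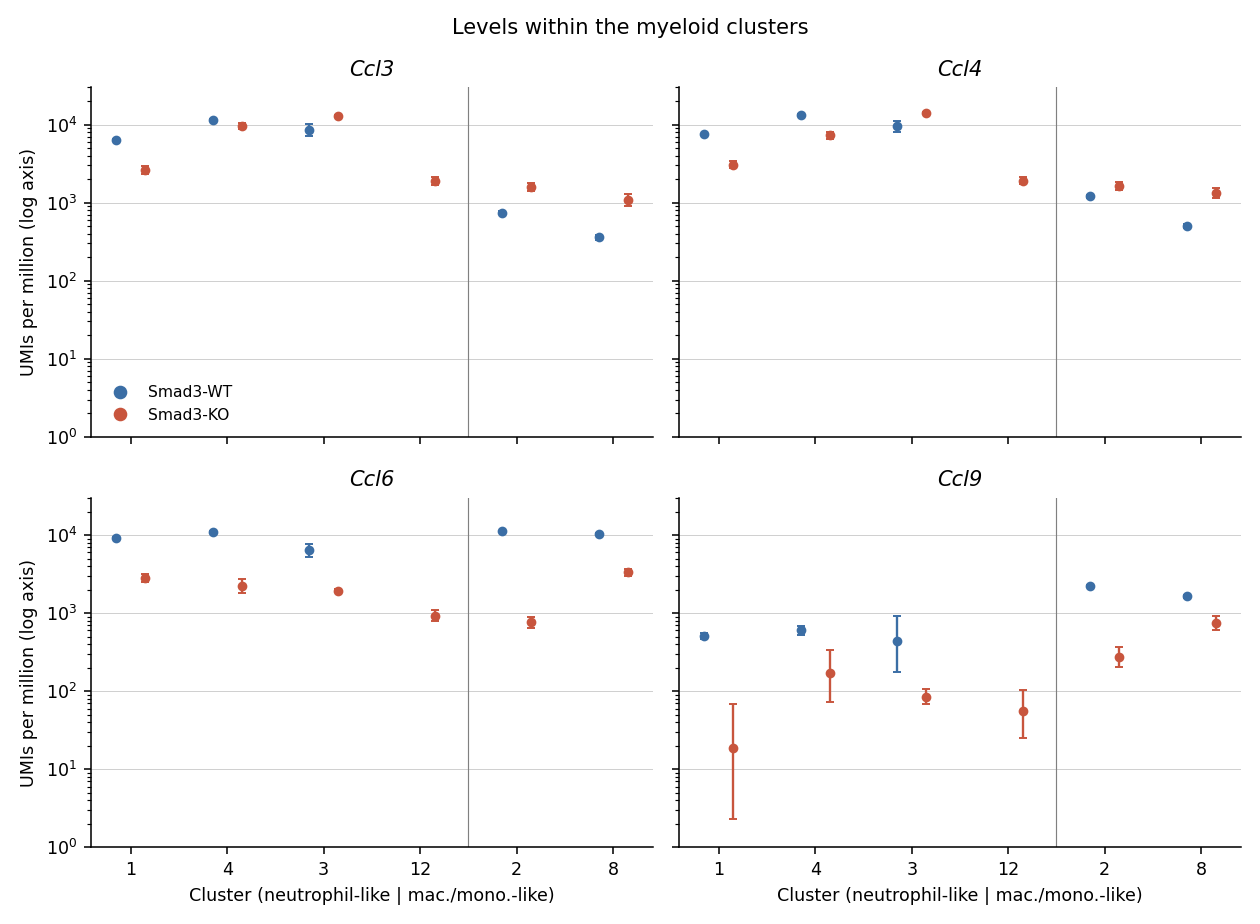
Levels of Ccl3, Ccl4, Ccl6 and Ccl9 (CPM, log axis) in the neutrophil-like clusters 1, 4, 3 and 12 and the macrophage or monocyte-like clusters 2 and 8, for Smad3-WT (blue) and Smad3-KO (red) with exact 95% Poisson intervals. Ccl6 is lower in Smad3-KO in all 5 clusters with both libraries, while Ccl3 is lower in clusters 1 and 4 and higher in cluster 3.

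In macrophage or monocyte-like cells Ccl3 was at 570.2 CPM in Smad3-WT and 1382 CPM in Smad3-KO, a ratio of 2.42 (2.18 to 2.69), and Ccl4 at 881 and 1512 CPM, a ratio of 1.72 (1.55 to 1.89). Of the cells of this class 601 of 1092 in Smad3-WT and 80 of 120 in Smad3-KO held a UMI of S100a8, S100a9 or Csf3r. Whether these UMIs came from neutrophils was not tested. Both levels were lower without the cells that held such a UMI. Ccl3 was then at 118 CPM (103 to 134) and 97.5 CPM (46.8 to 179), a ratio of 0.829 (0.392 to 1.55). Ccl4 was at 321 CPM (295 to 347) and 78.0 CPM (33.7 to 154), a ratio of 0.243 (0.105 to 0.483). A higher level of Ccl3 or Ccl4 in Smad3-KO macrophage or monocyte-like cells was not shown. Without these cells 7 members were again at least 2-fold lower, with Ccl4 in place of Ccl8, whose ratio was then 0.634 (0.514 to 0.775). The share of all genes past 2-fold was not taken for the cells that remained, so this count has no comparison.

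The level of S100a8, an abundant neutrophil gene, was taken as a measure of neutrophil RNA, a choice made after the values were seen. In macrophage or monocyte-like cells S100a8 stood at 0.0626 of its neutrophil-like level in Smad3-WT and at 0.0554 in Smad3-KO. Ccl3 stood at 0.0743 and 0.131, and Ccl4 at 0.0980 and 0.133. In Smad3-KO B-like cells S100a8 stood at 0.0582, Ccl3 at 0.0869 and Ccl4 at 0.102 of the neutrophil-like level. The Ccl3 quotient was thus 2.36 times (2.08 to 2.67) that of S100a8 in macrophage or monocyte-like cells of Smad3-KO and 1.49 times (1.38 to 1.62) in its B-like cells.

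The converse question was whether neutrophil-like cells contained the macrophage chemokines at all. C1qa, a complement gene of macrophages, was at 0.0174 (0.0118 to 0.0248) of its macrophage or monocyte-like level in Smad3-WT neutrophil-like cells (31 UMIs) and at 0.0208 (0.0114 to 0.0352) in Smad3-KO (15 UMIs). This was taken as the background of macrophage RNA. For Ccl7, Ccl12, Ccl8 and Ccl24 the Smad3-WT quotients were 0.0176, 0.0203, 0.0263 and 0.0175, and their intervals against C1qa all included 1. In Smad3-KO these 4 genes had between 0 and 14 UMIs over 1071 neutrophil-like cells. Levels of these 4 ligands in neutrophil-like cells were not distinguished from background at this depth.

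Ccl2 was at 84.7 CPM (71.0 to 100.3, 135 UMIs) in Smad3-WT neutrophil-like cells and at 8.45 CPM (4.22 to 15.1, 11 UMIs) in Smad3-KO. Its Smad3-WT quotient of 0.0325 was 1.86 times (1.25 to 2.85) that of C1qa, but it lay within the range of the other background genes, where Apoe stood at 0.0404. In Smad3-KO the Ccl2 quotient was 0.0516, or 2.48 times (0.961 to 6.20) that of C1qa. In Smad3-WT, 69 of 1817 neutrophil-like cells held any Ccl2 UMI and 1 cell held 22. The pooled Ccl2 level was 10.0-fold lower in Smad3-KO neutrophil-like cells, with a ratio of 0.0998 (0.0487 to 0.184), and 15.9-fold lower in macrophage or monocyte-like cells. Within clusters it was uneven, with a ratio of 3.12 (1.12 to 7.69) in cluster 4 (7 Smad3-KO and 20 Smad3-WT UMIs). The ratio was 0.00294 in cluster 3 (4 and 22 UMIs) and 0 in cluster 1 (0 and 93 UMIs). RNA from macrophage or monocyte-like cells was not told apart from that of neutrophils. In Smad3-KO, macrophage or monocyte-like cells held 7.73% and fibroblast-like cells 83.3% of the kept Ccl2 UMIs. The part of fibroblast RNA in the 11 UMIs was not tested.

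Ccl9, Ccl6, Ccl3 and Ccl4 stood well above the C1qa background in neutrophil-like cells. Ccl9 was at 0.271 of its macrophage or monocyte-like level in Smad3-WT, 15.5 times (10.8 to 23.0) the C1qa quotient, and at 0.169 in Smad3-KO, 8.14 times (4.44 to 15.7). Ccl6 was at 0.893 in Smad3-WT and 1.06 in Smad3-KO. Ccl3 was 13.5-fold and Ccl4 10.2-fold higher in neutrophil-like than in macrophage or monocyte-like cells of Smad3-WT, and 7.66-fold and 7.52-fold higher in Smad3-KO. Of 11 macrophage genes used as background, 8 had Smad3-WT quotients between 0.0140 and 0.0404, while Csf1r (0.153), Cd68 (0.316) and Adgre1 (0.350) were higher. Ccl9 therefore exceeded C1qa but not all background genes, whereas Ccl6, Ccl3 and Ccl4 exceeded all 11 in both libraries.

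**Figure D4:**
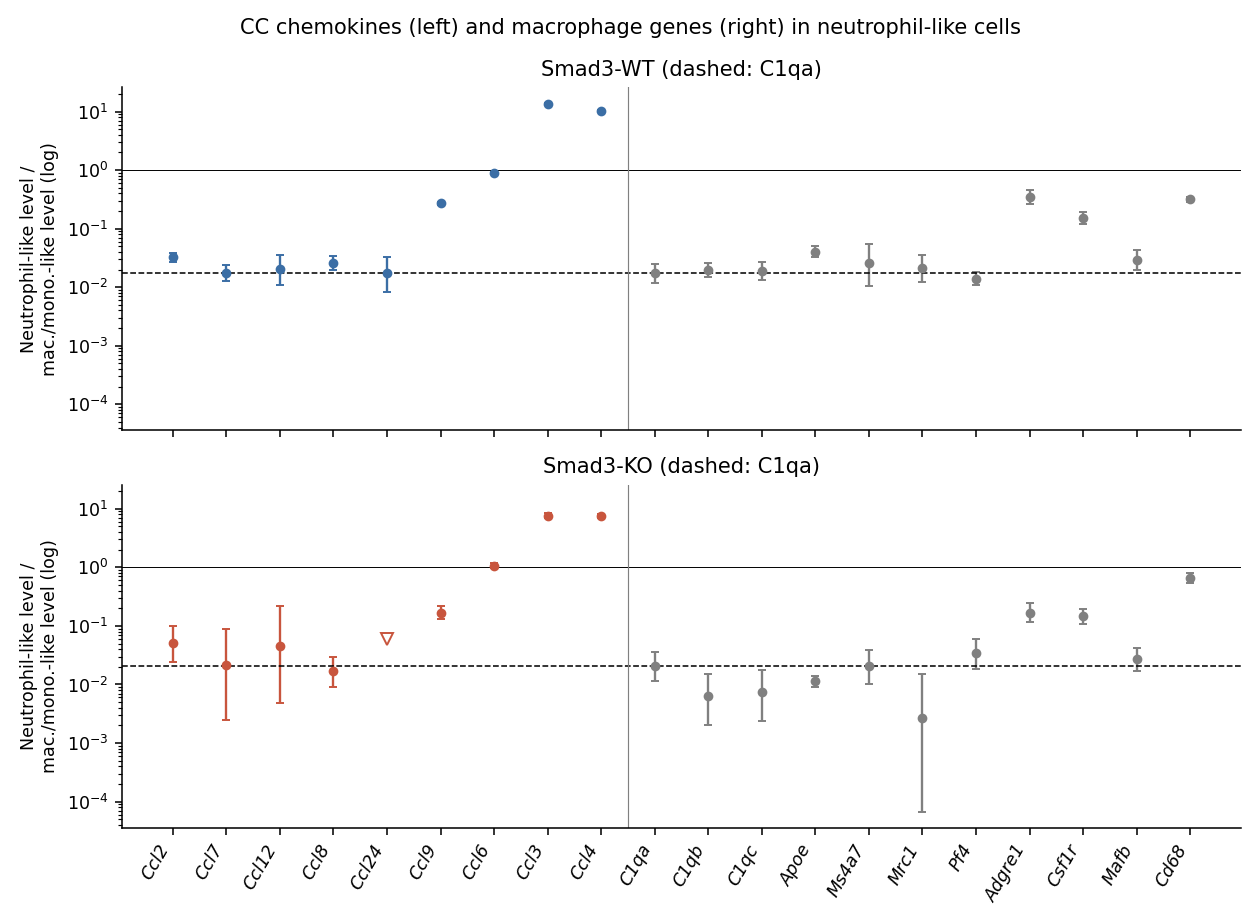
Level in neutrophil-like cells divided by the level in macrophage or monocyte-like cells (log axis) for the 9 CC chemokines (colored) and 11 macrophage genes (grey), with 95% intervals; the dashed line is C1qa and the open triangle an upper limit where no UMI was seen. Ccl2, Ccl7, Ccl12, Ccl8 and Ccl24 lie near C1qa (0.0174 in Smad3-WT and 0.0208 in Smad3-KO), and Ccl6, Ccl3 and Ccl4 lie above all macrophage genes.

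Fibroblast-like cells, which hold the matrix genes Col1a1, Col1a2 and Dcn, had the highest Ccl2 and Ccl7 levels of the Smad3-KO library. Ccl2 was at 1183 CPM (1066 to 1311) in 45 Smad3-WT cells and 1574 CPM (1443 to 1715) in 60 Smad3-KO cells, a ratio of 1.33 (1.16 to 1.52). Without the barcodes that both libraries held the ratio was 1.04 (0.892 to 1.22), so a difference of Ccl2 between the libraries was not shown here. Ccl7 was at 598 and 1023 CPM, a ratio of 1.71 (1.43 to 2.06), or 1.68 (1.38 to 2.05) without the shared barcodes. With cells thinned to 500 UMIs it was 0.984 (0.489 to 2.02) and as a mean over cells 1.11, so a difference of Ccl7 was not shown either. The 7 shared barcodes of the Smad3-KO library were deep, with a median of 13228 UMIs.

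The Smad3-WT fibroblast-like cells also held UMIs of the macrophage gene C1qa, and the part of macrophage RNA in their chemokine levels was not tested. C1qa was at 0.404 (0.339 to 0.477) of its macrophage or monocyte-like level in these cells. Ccl2 stood at 0.454, Ccl7 at 0.372, Ccl8 at 0.478, Ccl12 at 0.528, Ccl6 at 0.371 and Ccl9 at 0.347 of the macrophage or monocyte-like level. For each of them the interval against C1qa included 1. The other members were read without the shared barcodes. Ccl3 stood at 1.07 times the C1qa quotient (0.792 to 1.43), Ccl4 at 1.89 times (1.51 to 2.37) and Ccl24 at 0.334 times (0.181 to 0.572). In Smad3-KO fibroblast-like cells C1qa was at 0.0268 (5 UMIs) of the macrophage or monocyte-like level, while Ccl2 was 9.60-fold (7.16 to 13.1) and Ccl7 14.6-fold (9.37 to 23.8) higher than in macrophage or monocyte-like cells. There Ccl8 stood at 0.759, and Ccl12, Ccl6 and Ccl9 at 0.0891, 0.0637 and 0.0573. Of these, Ccl2, Ccl7 and Ccl8 exceeded the quotient of C1qa beyond counting error, while Ccl12 rested on 1 UMI. Without the shared barcodes Ccl2 was 7.29-fold (5.37 to 10.1) and Ccl7 13.9-fold (8.87 to 22.8) higher than in macrophage or monocyte-like cells and Ccl8 stood at 0.577 (0.443 to 0.747), with 3 UMIs of C1qa. These 3 ligands exceeded the C1qa quotient without them as well. So did Ccl6, at 3.54 times (1.09 to 18.2), Ccl3, at 4.82 times (1.49 to 24.8), and Ccl4, at 11.3 times (3.65 to 56.3). However, C1qa does not measure neutrophil RNA, and neutrophil-like cells held 86.4% of the Ccl3 and 70.8% of the Ccl6 UMIs of Smad3-KO. The part of neutrophil RNA in the Ccl6, Ccl3 and Ccl4 levels of fibroblast-like cells was not tested in either library.

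Carcinoma-like cells, marked by Krt8, Krt18 and Wfdc2, had Ccl2 at 653 CPM (3246 UMIs) in Smad3-WT. This was 0.251 of the macrophage or monocyte-like level, 2.53 times (2.29 to 2.79) the quotient of C1qa, whereas Ccl7 and Ccl8 were at 0.984 and 0.964 times the C1qa quotient. In Smad3-KO this class gave 15 Ccl2 UMIs from 36 cells, and 7 UMIs without the shared barcodes. The ratio of Ccl2 between the libraries was 0.390 (0.218 to 0.644) with and 0.227 (0.0910 to 0.467) without them. Ccl3 was at 121 and 645 CPM in this class, a ratio of 5.34 (3.74 to 7.42), with 38 UMIs in Smad3-KO. Without the shared barcodes, which left 17 Smad3-KO cells, it was at 121 and 804 CPM, a ratio of 6.65 (4.66 to 9.24). S100a8 stood at 0.0106 of its neutrophil-like level in Smad3-WT and 0.0504 in Smad3-KO without these barcodes, and Ccl3 at 0.0158 and 0.0761.

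Dendritic-like cells also had less Ccl6 in Smad3-KO, while the differences of Ccl9, Ccl3 and Ccl4 passed counting error in 1 of their 2 clusters. Ccl6 was at 1620.2 CPM in Smad3-WT and 263 CPM in Smad3-KO, a ratio of 0.162 (0.132 to 0.198), and Ccl9 at 302 and 53.9 CPM. Ccl3 was at 552 and 1184 CPM, a ratio of 2.14 (1.84 to 2.50), and Ccl4 at 709 and 1646 CPM, a ratio of 2.32 (2.03 to 2.65). In cluster 9 (71 Smad3-WT and 66 Smad3-KO cells) the ratios were 3.33 (2.74 to 4.06) for Ccl3, 2.996 (2.57 to 3.501) for Ccl4, 0.122 (0.0614 to 0.220) for Ccl9 and 0.190 (0.149 to 0.239) for Ccl6. In cluster 11 (27 and 46 cells) they were 0.832 (0.646 to 1.07), 1.16 (0.892 to 1.505), 0.632 (0.253 to 1.56) and 0.107 (0.0693 to 0.160). Over the class, S100a8 stood at 0.0375 and Ccl3 at 0.0719 of the neutrophil-like level in Smad3-WT, against 0.0490 and 0.112 in Smad3-KO. The part of neutrophil RNA in the Ccl3 and Ccl4 levels of dendritic-like cells was not tested. The Ccl6 ratio of macrophage or monocyte-like cells was 0.164, and the part of macrophage RNA in the dendritic-like Ccl6 and Ccl9 levels was not tested. In T or NK-like cells Ccl6 was at 3108 CPM in Smad3-WT, where C1qa was at 0.182 and Ccl6 at 0.286 of the macrophage or monocyte-like level, and at 128 CPM in Smad3-KO.

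Across the 1092 Smad3-WT macrophage or monocyte-like cells, each thinned to 500 UMIs, the 3 closest pairs were chromosomal neighbours, although not every pair of neighbours stood above the pairs from different blocks. Spearman's rho was 0.48 for Ccl2 with Ccl7, 0.29 for Ccl7 with Ccl12 and 0.24 for Ccl12 with Ccl8. It was 0.30 for Ccl9 with Ccl6, 0.01 for Ccl6 with Ccl3 and 0.37 for Ccl3 with Ccl4. Of these 1092 cells 601 held a UMI of S100a8, S100a9 or Csf3r, and the part of neutrophil RNA in the rho of Ccl3 with Ccl4 was not tested. Between blocks, rho was 0.29 for Ccl2 with Ccl6, -0.01 for Ccl2 with Ccl3 and -0.05 for Ccl8 with Ccl6. Of the cells with a Ccl7 UMI 72.0% also held a Ccl2 UMI, against 26.6% of the other cells. The cells share 1 library, so these values describe it and carry no test.

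Ccl3 and Ccl4 were the most closely coupled pair in neutrophil-like cells, with a rho of 0.49 over 1817 Smad3-WT and 0.52 over 1071 Smad3-KO thinned cells. Ccl6 was nearly independent of them in Smad3-KO, with a rho of 0.01 with Ccl3, and weakly related in Smad3-WT (0.15). In 120 Smad3-KO macrophage or monocyte-like cells rho was 0.48 for Ccl3 with Ccl4 and 0.47 for Ccl9 with Ccl6, and between blocks it was 0.44 for Ccl8 with Ccl6 and 0.28 for Ccl8 with Ccl9. Neutrophil genes were found in 80 of these 120 cells, and the part of neutrophil RNA in the rho of Ccl3 with Ccl4 was not tested here either.

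Among 7353 genes with at least 200 UMIs, the patterns most like each member over 16 groups of cells, each a cluster in 1 library with at least 50 cells, were found by Pearson's r of log2(CPM + 10). For Ccl3 they were Ccl4 (r = 0.99), Il1rn (0.98), the interleukin-1 receptor antagonist, and Hcar2 (0.98), and for Ccl4 they were Ccl3, Hcar2 (0.97) and Il1rn (0.97). Ccl2 was most like Ccl7 (0.92), Gas2l1 (0.92) and Twf1 (0.91), and Ccl7 most like Emp1 (0.95), Adam9 (0.93) and Ccl2. Ccl12 was most like C1qb (0.94), Folr2 (0.93) and Pf4 (0.93), which are macrophage genes. Ccl8 was most like Itsn1 (0.91), Gas6 (0.90) and Cdk20 (0.88), and Ccl24 most like Ppbp (0.94), Ms4a8a (0.94) and F13a1 (0.92). Ccl6 was most like Clec4n (0.93), Fcgr3 (0.92) and Aldoa (0.90), and Ccl9 most like Clec4n (0.88), Ddx3y (0.88) and Gm34084 (0.87). The Y-linked Ddx3y marks the Smad3-WT library rather than a cell type, so the likeness to Ccl9 includes the difference between libraries.

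The 13 clusters that the authors averaged over cells of both libraries were read by the genes that mark them. Their averages are the share of a gene in all UMIs of a cluster, scaled to the median of 1311 UMIs per cell, and they carry no spread. Ccl3 and Ccl4 were highest in cluster 3 (19.3 and 20.3), followed by cluster 4 (13.3 and 15.6) and cluster 1 (10.5 and 13.4), all with S100a8 at 27.2 or more. The highest S100a8 was in cluster 10 (67.9) and cluster 6 (64.2), where Ccl3 was at 4.82 and 3.91 and Ccl4 at 4.16 and 5.23. Ccl2 was highest in cluster 5 (3.90), which had the highest Arg1, then in the C1qa-rich cluster 7 (2.57), in cluster 2 with Col1a1 (0.990) and in cluster 11 with Krt8 (0.813). Ccl24 was also highest in cluster 5 (0.491), and Ccl7, Ccl8 and Ccl12 in cluster 7 (1.91, 2.25 and 0.610).

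Ccl6 was nearly level over deposited clusters 5 (13.8), 1 (13.4) and 7 (12.1), of which 1 was rich in S100a8 (55.0) and the others were not, and it was lower in the S100a8-rich cluster 3 (2.51). Ccl9 was highest in clusters 5 (2.74) and 7 (2.07) and at 0.570 in cluster 1. In the B cell cluster 8, with Cd79a at 2.95, Ccl3 was at 0.641, Ccl6 at 0.108 and Ccl2 at 0.00310. These averages mix the libraries and say nothing about genotype.

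**Figure D5:**
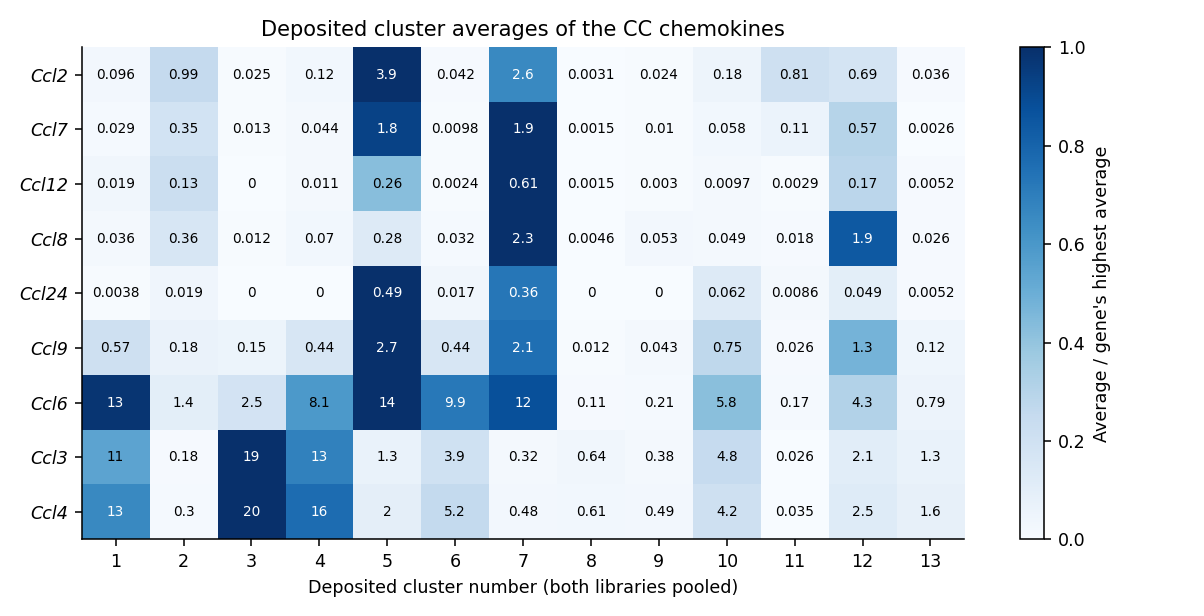
Averages of the 9 CC chemokines in the 13 deposited clusters of both libraries together, printed as the authors' value (UMIs scaled to 1311 per cell) and shaded relative to the highest cluster of each gene. Ccl3 and Ccl4 peak in cluster 3 (19.3 and 20.3), Ccl2 and Ccl24 in cluster 5, and Ccl7, Ccl8 and Ccl12 in cluster 7.

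Ccr1, the receptor of CCL3, CCL6 and CCL9, was at 1668 CPM in Smad3-WT and 659 CPM in Smad3-KO neutrophil-like cells (ratio 0.395, 0.365 to 0.427) and at 379 and 147 CPM in macrophage or monocyte-like cells (ratio 0.389, 0.281 to 0.524). The atypical receptor Ccrl2, which binds chemerin and does not signal to chemotaxis, was at 1032 and 3720.1 CPM in neutrophil-like cells (ratio 3.60, 3.41 to 3.81) and at 107 and 435 CPM in macrophage or monocyte-like cells (ratio 4.05). In Smad3-KO it was also at 354 CPM in B-like, 443 in dendritic-like, 493 in carcinoma-like, 155 in T or NK-like and 74.5 in fibroblast-like cells. Neutrophil genes were found in 80 of the 120 Smad3-KO macrophage or monocyte-like cells. The part of neutrophil RNA in the Ccr1 and Ccrl2 levels of that class was not tested. Ccr2 was at 533 and 475 CPM in macrophage or monocyte-like cells, with a ratio of 0.891 (0.747 to 1.06) that included 1.

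Of 12 other CC chemokines, 1 had at least 20 UMIs in neutrophil-like cells and 2 in macrophage or monocyte-like cells. Ccl5, best known from T and NK cells, was at 6.90 CPM (11 UMIs) in Smad3-WT and 67.6 CPM (88 UMIs) in Smad3-KO neutrophil-like cells (ratio 9.80, 5.22 to 20.3). Of the 88 UMIs 47 were in 1 cell, and 17 of 1071 cells held any. The gene was at 139.9 and 238 CPM in macrophage or monocyte-like cells. Dendritic-like cells were at 2306 CPM in Smad3-WT and 8716 CPM (3718 UMIs) in Smad3-KO. T or NK-like cells, 62 of the Smad3-WT and 462 of the Smad3-KO cells, were at 3038 and 874 CPM (675 UMIs in Smad3-KO). The part of RNA from either class in the Ccl5 level of neutrophil-like cells was not tested. Ccl17 was counted 39 times in Smad3-WT and 0 times in Smad3-KO macrophage or monocyte-like cells, with an upper limit of 1.51 on the ratio. The other 10 ligands had at most 17 UMIs in a library in either class.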

How the data were processed

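Libraries of sorted TANs, 1 per genotype, were analysed. The authors processed reads of a 5′ kit with Cell Ranger on build mm10, per the submitters' processing notes. The version, 3.0.2, is recorded with the counts. Raw counts of UMIs per gene and barcode were deposited. The authors also deposited averages per library and for 13 clusters, a signal equal to a gene's share of UMIs times 1311. Deposited fold changes and p-values were not used. Barcodes were given to a library by agreement of their summed UMIs with the labelled averages (largest differences of 3.58e-08 and 4.91e-09 over 19114 genes).

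A cell was kept with 200 genes or more, less than 10% mitochondrial UMIs, and a total above 500 and below 20000 UMIs. Louvain clustering (resolution 1.0, 15 neighbours, 100 principal components, 2000 variable genes without Ccl genes, seed 1) used scanpy 1.11.5 with igraph 0.11.9. A cluster was named when at least 3 markers were found in at least 10% of its cells at 2 times the level elsewhere. Doublets were limited by the upper UMI limit alone, and no doublet caller was run. Levels in CPM have exact Poisson intervals, and ratios and quotients exact binomial intervals of the split of UMIs. Shares of cells were compared after thinning to 500 UMIs (0 cells left out). A member was counted as lower or higher past 2-fold with at least 20 UMIs over both libraries.

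Genes named were the 9 members, those of the receptor, ligand, background and marker lists, and the 3 most like each member. Genes that lead a cluster, S100a8 as a background gene, Smad3, Xist and Ddx3y were chosen after their values were seen. Members and lists were chosen with earlier results of these data known. The ratio intervals and the clustering were tried on simulated counts. Counts for the intervals were drawn from the counting model that the intervals assume, so bunching of UMIs in few cells was not covered. Python 3.11.15 ran pandas 2.3.3, scipy 1.17.1, numpy 2.4.6 and matplotlib 3.10.9. Alternatives changed the filter, the clustering, mixed cells, totals, thinning, averaging over cells, scaling, background genes and shared barcodes. Values of 1 receptor gene are not reported here.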

Additional observations from a re-analysis of the deposited data

Results flagged for a closer look

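Ratios of the Smad3-KO to the Smad3-WT level lay on opposite sides of 1, beyond their counting intervals, in different cells of the same libraries for 4 members, but for each of them an alternative moved at least 1 class to the other side. The differences between classes and clusters were not tested, since each genotype has 1 library.

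Ccl2 had a ratio of 0.0629 in macrophage or monocyte-like and 1.33 in fibroblast-like cells, and Ccl7 had ratios of 0.0437 and 1.71. Without barcodes of both libraries the fibroblast-like ratio of Ccl2 was 1.04, and in cells thinned to 500 UMIs those of Ccl2 and Ccl7 were 0.938 and 0.984. Ccl3 had ratios of 1.38 in neutrophil-like, 2.42 in macrophage or monocyte-like and 0.602 in fibroblast-like cells, and Ccl4 had ratios of 1.27, 1.72 and 0.563. Without the cells that held neutrophil genes the macrophage or monocyte-like ratios were 0.829 and 0.243, so a higher level in those cells was not shown, and with Louvain clusters at resolution 0.1 the fibroblast-like ratios were 1.59 and 1.76.

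Within the neutrophil-like class the Ccl3 ratio was 1.51 in cluster 3, 0.413 in cluster 1 and 0.846 in cluster 4. For Ccl4 these ratios were 1.48, 0.410 and 0.553. The cluster 3 values rest on 20 Smad3-WT cells.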

How the results depend on the processing

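No paired analysis was possible because each genotype has 1 library. In macrophage or monocyte-like cells Ccl2, Ccl7, Ccl12, Ccl9, Ccl6 and Ccl24 stayed lower in Smad3-KO in every alternative that gave a ratio, with Ccl2 between 0.0159 and 0.123 and Ccl6 between 0.0676 and 0.320. Ccl8 turned to 1.21 with cells thinned to 500 UMIs, 1.08 as a mean over cells and 1.47 in cluster 2 alone, and Ccl3 to 0.829 and Ccl4 to 0.243 without mixed cells. Ccl2 in neutrophil-like cells turned to 3.12 in cluster 4 alone, from 7 Smad3-KO and 20 Smad3-WT UMIs. The members at least 2-fold higher in macrophage or monocyte-like cells numbered 2, not 1, with the filter of the MetaCell step, at resolution 0.1, with 30 principal components and in cluster 8 alone, and 0 without mixed cells. Those at least 2-fold lower in neutrophil-like cells numbered 4 in cluster 1 alone, 3 in cluster 3 alone and 2 in cluster 4 alone, against 5, and 1 was higher in cluster 4. Members with no UMI in a library were left out of these counts (Ccl2, Ccl7 and Ccl8 in cluster 1 and Ccl8 in cluster 4, all without a Smad3-KO UMI). The share of all genes past 2-fold was not taken under the alternatives, so these counts have no comparison. Median-of-ratios scaling shifted log2 ratios by 0.36 in neutrophil-like, -0.06 in macrophage or monocyte-like and 0.01 in fibroblast-like cells. Ccl6 in neutrophil-like cells stayed between 0.193 and 0.305, while Ccl3 ranged from 0.413 to 1.77 and Ccl4 from 0.410 to 1.62. Without mixed cells no background quotient could be had, since these cells were chosen by C1q genes. In neutrophil-like cells of Smad3-WT the Ccl2 quotient stayed between 1.08 and 2.37 times the background and that of Ccl9 between 8.74 and 16.7 times. In fibroblast-like cells the ratio of Ccl2 ranged from 0.827 to 2.09 and that of Ccl7 from 0.984 to 4.90, and at resolution 0.1 those of Ccl8, Ccl3 and Ccl4 turned to 2.68, 1.59 and 1.76. Single clusters, cells without cluster 12, S100a8 as background and leaving out shared barcodes were chosen after seeing the data. The cause of these changes was not tested. Depth limits Ccl12, Ccl24, Ccl7 and Ccl2 in Smad3-KO, where macrophage or monocyte-like cells gave 10, 16, 21 and 49 UMIs.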
